A study of Mus musculus with 9 samples.

Results

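The genes described here are 37 genes of homologous recombination and the Fanconi repair pathway, measured in invariant natural killer T (iNKT) cells of the mouse thymus with and without Utx. They were taken from a list of 39 gene symbols: a gene was kept when a probe set of the array was annotated to it alone, which left 37 of 14524 genes tested, and its probe set of highest mean level was used. Each of 9 arrays carried RNA of sorted thymic iNKT cells, which are T cells with a nearly fixed receptor for lipids presented by CD1d. The knockout group had 4 arrays (KO1 to KO4) of animals labelled as Utx knockout, and the wildtype group 5 arrays (WT1 to WT5) of animals labelled as Utx wildtype. Animals of both groups were 8 to 12 weeks old and matched for sex and age, and the replicates are labelled as biological. How the knockout was made, which cells lack Utx and how cells were gated are not stated by the labels. The titles place KO1 and WT1 in batch 1, KO2, KO3, KO4 and WT2 in batch 2, and WT3, WT4 and WT5 in batch 3.

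Homologous recombination copies an intact sister strand to mend a broken or collapsed replication fork, so its genes are used mostly by cells that are copying their DNA. The broken end is trimmed, a recombinase is loaded on it by BRCA2 and its partners, and the joined molecules are later taken apart by helicases and nucleases. The Fanconi pathway removes crosslinks between DNA strands: a core complex attaches ubiquitin to FANCD2 and FANCI, which then recruit nucleases and the recombination proteins. ATM, ATR and their downstream kinases CHK2 and CHK1 signal the damage and slow the cell cycle. Developing T cells also cut their own DNA to assemble receptor genes, a step sensed by ATM. Utx, encoded by Kdm6a, is a histone demethylase that removes a repressive methyl mark.

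Knockout iNKT cells had more RNA of many of these genes. Of the 37 genes, 18 rose and 0 fell (limma with batch as a factor, Benjamini-Hochberg adjusted p under 0.05 over all 14524 genes), a share of 48.6%, where 7.88% of all genes tested were called higher and 3.37% lower. The rises ran from 1.60-fold for Topbp1 to 4.84-fold for Rad54b, and 16 of the 18 were at least 2-fold. The median difference of the 37 genes was 0.85 (log2), against 0.11 over all genes tested. Differences are fitted within batches 1 and 2, since batch 3 has no knockout array. WT3, WT4 and WT5 therefore enter the spread of the fit but not the differences, which stay the same when they are left out. On 25 of the 37 genes every knockout array lay above every wildtype array, which held for 22.2% of all genes. A positive difference was found for 35 genes, where 59.3% of all genes had one, and 25 had an unadjusted p under 0.05, in either direction, where 30.8% of all genes did. RNA was measured on bulk cells, so a larger share of cells with high levels and more RNA per cell cannot be told apart.

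**Figure D1:**
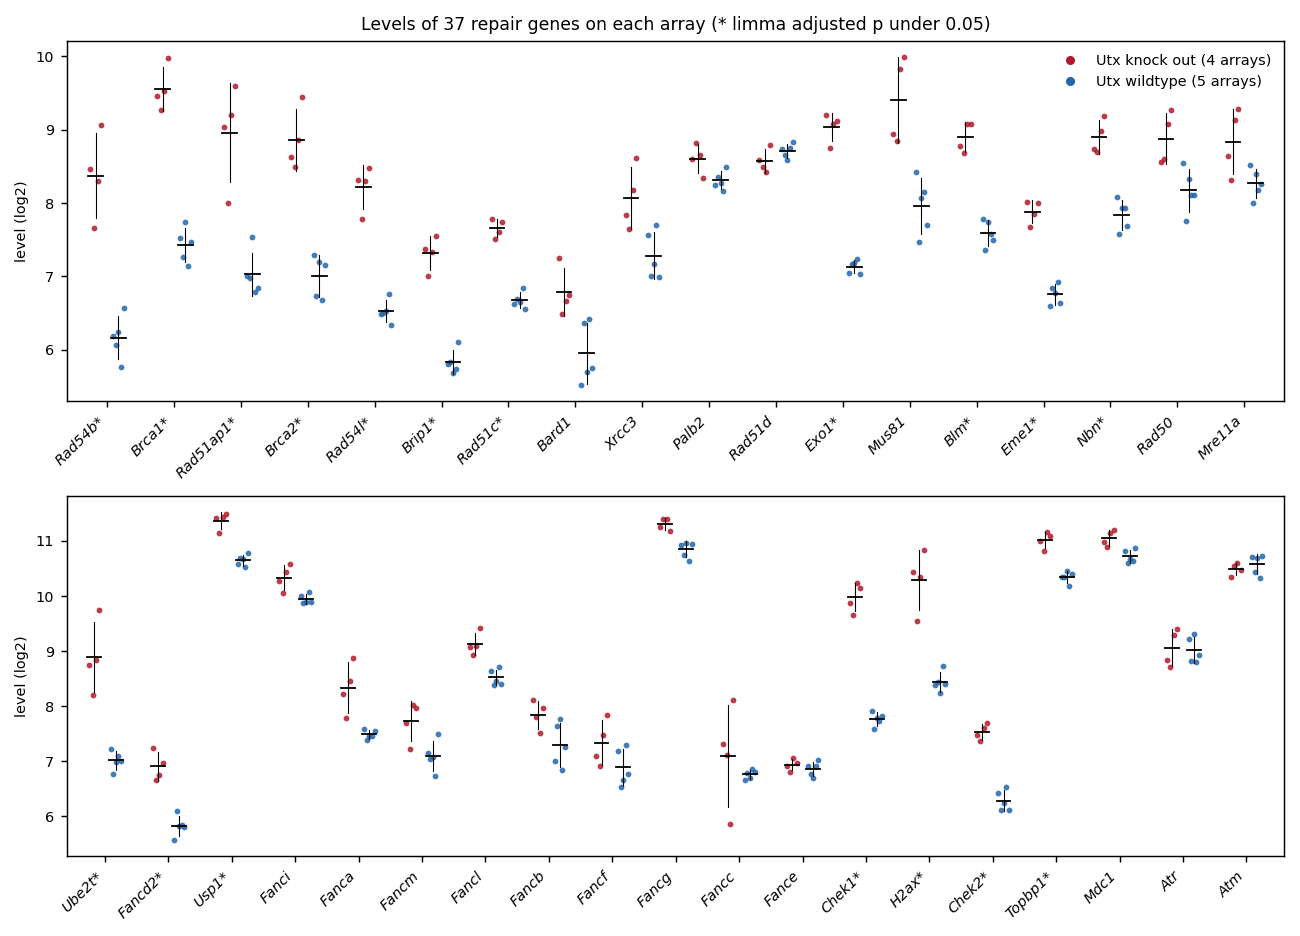
Level (log2) of each of the 37 genes on each array, with 4 knockout arrays (red, left of each pair) and 5 wildtype arrays (blue, right); black lines give the mean and the SD, and an asterisk marks an adjusted p under 0.05. All 18 marked genes have their knockout points above their wildtype points, and the points of Atm, Atr and Rad51d overlap.

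This count, like that over all genes, moved when single arrays were left out. Leaving out WT2, the only wildtype array of batch 2, gave 9 genes, of which 8 were among the 18, in a fit that called 3.79% of all genes higher. Leaving out any other array gave 15 to 20, with 4.21% to 10.4% of all genes called higher. Exo1, Chek1, Brca1, Rad54l, Brip1, Eme1 and Rad51c were called every time an array was left out. Of these 9 fits, Topbp1 was not called in 8, Usp1 in 7 and Rad51ap1 in 4. Without the 3 wildtype arrays of batch 3 the count was 9, all of them among the 18, and 1.89% of all genes were called higher.

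Promoters were examined because 18 of the genes rose together. Sequences of 250 bases before and 50 after the annotated start, from RefSeq (GRCm38.p6), were at hand for 29 of the 37 genes, 12 of them called, in 31 windows. The letters TTTNNCGC, with any base at N, were searched on both strands. They are a looser form of the site that E2F factors of the cell cycle bind, so a match need not be such a site. CCAAT, the site of NF-Y, and TTTGAA or TTCGAA, the form of the cell cycle homology region, were searched likewise. Overlaps between motifs were allowed. TTTNNCGC was found in 6 of 14 windows of called genes (42.9%), in 3 of 17 windows of genes not called (17.6%) and in 5.17% of all 32851 windows. Windows are not independent: the 14 come from 12 genes, since Rad51c and Rad54l each have a further window, and those of Rad54l overlap almost wholly. CCAAT was in 57.1%, 64.7% and 37.4% of them in the same order, and TTTGAA or TTCGAA in 7.14%, 11.8% and 19.2%. The share of G and C was 59.5% in windows of called genes, 59.2% in those not called and 53.8% in all windows, which were not matched for it. A match describes the letters only. The stretches with TTTNNCGC before the annotated start are shown because they let called genes (Brip1, Chek2, Brca2 and Topbp1) be set beside genes not called (Fancg, Bard1 and Mdc1). The called gene Rad51c also had a match in each of its windows, both counted above, from base 12 to 19 after the start in one and across the start in the other, and Chek2 and Bard1 each had a further match after the start; these are not shown. Each is given on the strand of its gene, 5′ to 3′, with up to 30 bases on either side, and the capitals mark the match or its reverse complement.
Brip1: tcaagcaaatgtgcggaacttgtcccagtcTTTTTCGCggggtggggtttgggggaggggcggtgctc
Chek2: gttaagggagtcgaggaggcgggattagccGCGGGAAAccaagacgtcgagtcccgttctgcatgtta
Brca2: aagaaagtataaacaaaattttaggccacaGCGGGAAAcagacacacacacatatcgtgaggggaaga
Topbp1: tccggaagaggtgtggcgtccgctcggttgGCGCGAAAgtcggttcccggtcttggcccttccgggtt
Fancg: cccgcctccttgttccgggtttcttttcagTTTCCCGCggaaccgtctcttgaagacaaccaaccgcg
Bard1: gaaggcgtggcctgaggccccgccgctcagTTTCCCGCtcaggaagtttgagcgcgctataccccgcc
Mdc1: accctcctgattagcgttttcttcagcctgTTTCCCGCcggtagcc
On GRCm38.p6 the stretch of Brip1 is chr11:86201345-86201412 on the minus strand. That of Chek2 is chr5:110839801-110839868 on the plus strand, that of Brca2 chr5:150522423-150522490 on the plus strand and that of Topbp1 chr9:103305168-103305235 on the plus strand. For the genes not called, Fancg has chr4:43010316-43010383 and Bard1 chr1:71103144-71103211, both on the minus strand, and Mdc1 chr17:35841452-35841497 on the plus strand. All of these lie before the annotated start of the gene's transcript.

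Over all 14524 genes, 1144 were called higher and 490 lower, a split that moved to 1043 and 745 after another quantile normalization and to 1046 and 1112 after scaling every array to a common interquartile range. That last scaling moved the median over all genes to -0.06, and the median of the 37 repair genes was then 0.69, with 17 called higher and 31 positive, where 7.20% of all genes were called higher. Interquartile ranges of the arrays were 3.80 to 4.29 (log2) for knockout and 3.45 to 3.84 for wildtype. Deviations from the group mean, taken over all genes tested, correlated at -0.922 between KO1 and WT1 and at 0.914 between KO1 and WT2, while those of KO2, KO3 and KO4 with the wildtype arrays lay between -0.476 and 0.455. No label says whether the deposited values had been adjusted for batch, and the part of such a step in the results was not tested. The 4 probe sets of Kdm6a had differences of -0.46 to 0.52, with 0 called by limma over all one-gene probe sets (smallest adjusted p 0.126), and the deleted part of the gene is not stated, so they do not check the labels. Of 15 iNKT markers 0 rose and 4 fell, Cd44 (-1.23), Il2rb (-1.01), Tbx21 (-1.08) and Klrd1 (-0.95; limma adjusted p 0.0135 to 0.0307), with a median of -0.22. Zbtb16, which defines the lineage, had levels of 10.46 to 10.96 on knockout and 10.69 to 11.18 on wildtype arrays, and Cd3e of the T cell receptor complex 12.70 to 13.01 and 12.79 to 12.93.

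Among the recombinase mediators and partners, 7 of 11 genes rose and 0 fell, with a median difference of 1.51 (log2). Over all genes tested, 7.88% were called higher and 3.37% lower. Brca1, whose protein forms a ubiquitin ligase with BARD1 and directs broken ends towards recombination, had levels of 9.45, 9.27, 9.53 and 9.97 (log2) on KO1 to KO4, against 7.53, 7.27, 7.75, 7.15 and 7.47 on WT1 to WT5. The groups did not overlap, and the lowest knockout array lay well above the highest wildtype array. Its mean was 9.56 ± 0.30 in knockout and 7.43 ± 0.23 in wildtype cells (SD, n = 4 and 5). The rise fitted within batches was 4.48-fold (log2 difference 2.16, SE 0.25, limma adjusted p = 0.0038).

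Rad54l, a motor protein that drives strand exchange, had 8.32, 7.78, 8.30 and 8.48 on KO1 to KO4, against 6.49, 6.50, 6.53, 6.76 and 6.34 on WT1 to WT5. KO2 was the lowest knockout array and still lay above all wildtype arrays (log2 difference 1.75, SE 0.23, limma adjusted p = 0.0046). Its relative Rad54b had 8.46, 7.66, 8.30 and 9.07 on KO1 to KO4, against 6.19, 6.06, 6.25, 5.76 and 6.56 on WT1 to WT5. This was the largest difference among the 37 genes, at 2.28 (SE 0.38, limma adjusted p = 0.0103), with KO4 highest and KO2 lowest, and leaving out WT2 gave 2.27 with an adjusted p of 0.0712.

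Brip1, a helicase that binds BRCA1, had 7.38, 7.00, 7.33 and 7.56 on KO1 to KO4, against 5.80, 5.83, 5.69, 5.74 and 6.11 on WT1 to WT5. Its rise of 2.85-fold (log2 difference 1.51, SE 0.21, limma adjusted p = 0.0054) varied little between arrays, with 1.57 in batch 1 and 1.47 in batch 2. Brca2, which loads the recombinase onto DNA, had 8.62, 8.49, 8.86 and 9.45 on KO1 to KO4, against 7.30, 6.73, 7.20, 6.68 and 7.16 on WT1 to WT5. It was 3.61-fold higher (log2 difference 1.85, SE 0.31, limma adjusted p = 0.0112), but leaving out WT2 took it to 1.32 (adjusted p = 0.150). Rad51ap1, an accessory protein of the recombinase, rose by 1.99 (limma adjusted p = 0.0238), and Rad51c, a recombinase paralog, by 1.02 (adjusted p = 0.0093).

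The other 4 genes of this group were not called. Bard1, the partner of BRCA1, had a difference of 0.85 (limma adjusted p = 0.131) that was 1.72 in batch 1 and 0.26 in batch 2. Xrcc3, another recombinase paralog, had 0.79 (adjusted p = 0.145), and Palb2, which bridges BRCA1 and BRCA2, 0.29 (adjusted p = 0.314). Rad51d, also a paralog, had 8.59, 8.49, 8.42 and 8.79 on KO1 to KO4, against 8.73, 8.65, 8.59, 8.75 and 8.83 on WT1 to WT5. Its groups overlapped, and its difference of -0.11 (SE 0.17, adjusted p = 0.697) was the lowest of the 37 genes.

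Break sensing, end resection and joint processing held 7 measured genes, of which 4 rose and 0 fell (median difference 1.16). The shares called over all genes were 7.88% higher and 3.37% lower. Exo1, a nuclease that trims broken ends, had 9.20, 8.75, 9.08 and 9.11 on KO1 to KO4, against 7.05, 7.16, 7.19, 7.23 and 7.03 on WT1 to WT5. The wildtype arrays lay close together, and no knockout array came near them. Its mean was 9.04 ± 0.20 in knockout and 7.13 ± 0.09 in wildtype cells (SD, n = 4 and 5). The rise fitted within batches was 3.86-fold (log2 difference 1.95, SE 0.18, limma adjusted p = 0.0024) and had the smallest p of the 37 genes.

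Blm, the Bloom helicase, which takes joined molecules apart, had 8.78, 8.69, 9.07 and 9.07 on KO1 to KO4, against 7.78, 7.37, 7.74, 7.58 and 7.49 on WT1 to WT5 (log2 difference 1.34, SE 0.20, limma adjusted p = 0.0073). Without WT2 this call ended (0.99, adjusted p = 0.0888). Eme1 encodes the partner of the MUS81 nuclease, and its levels were 8.01, 7.67, 7.85 and 8.00 on KO1 to KO4, against 6.59, 6.85, 6.78, 6.93 and 6.64 on WT1 to WT5 (log2 difference 1.16, SE 0.18, limma adjusted p = 0.0085). Mus81 itself had a difference of 1.46 (SE 0.41) that did not pass (adjusted p = 0.0552), with 8.94, 8.85, 9.82 and 9.99 on KO1 to KO4, against 8.42, 7.46, 8.08, 8.14 and 7.70 on WT1 to WT5. Its groups did not overlap, but the difference was 0.52 in batch 1 and 2.09 in batch 2.

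The sensor complex of broken ends has 3 parts. Nbn, which links it to ATM, rose by 1.09 (SE 0.22, limma adjusted p = 0.0193), although without WT2 its call ended (0.65, adjusted p = 0.314). Rad50, its clamp, differed by 0.74 (adjusted p = 0.128), made up of 0.017 in batch 1 and 1.22 in batch 2. Mre11a, its nuclease, differed by 0.60 (adjusted p = 0.211), or 0.12 in batch 1 and 0.91 in batch 2.

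Each gene was placed in 1 role group only. The group around the ubiquitination of FANCD2 and FANCI had 3 of 4 genes higher and 0 lower (median difference 0.91). Of all genes tested, 7.88% were called higher and 3.37% lower. Ube2t, the enzyme that donates the ubiquitin, had 8.75, 8.20, 8.84 and 9.74 on KO1 to KO4, against 7.22, 6.77, 6.99, 7.09 and 7.00 on WT1 to WT5. It rose 3.76-fold (log2 difference 1.91, SE 0.38, limma adjusted p = 0.0179), with KO4 apart at the top and KO2 at the bottom of the knockout arrays, and without WT2 its call ended (1.53, adjusted p = 0.207). Fancd2 rose by 1.09 (adjusted p = 0.0206), which was 1.67 within batch 1 but 0.70 within batch 2, and lost its call without KO1 or WT1 (0.70, adjusted p = 0.0616). Usp1, which removes the ubiquitin again, had 11.41, 11.14, 11.44 and 11.48 on KO1 to KO4, against 10.59, 10.69, 10.67, 10.52 and 10.78 on WT1 to WT5 (log2 difference 0.73, SE 0.17, limma adjusted p = 0.0313), a difference that was 0.23 (adjusted p = 0.474) after scaling to a common interquartile range. Fanci, the partner of Fancd2, had 0.39 (adjusted p = 0.193), a sign that turned with the same scaling (-0.0073).

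The core complex and its helicase partner Fancm, which together form the ligase machinery, had 0 of 8 genes called by limma, in either direction. All 8 had a positive difference, as did 59.3% of all genes, from 0.10 for Fance to 0.85 for Fanca, with a median of 0.50. Every knockout array lay above every wildtype array for 3 of the 8, and for 22.2% of all genes. At an unadjusted p under 0.05 there were 3, where 30.8% of all genes passed in either direction. These were Fancl, the ubiquitin ligase subunit (0.62, adjusted p = 0.0720), Fanca (0.85, adjusted p = 0.0880) and Fancg (0.48, adjusted p = 0.108). Fancg turned to -0.016 after scaling to a common interquartile range. Fance, an adaptor of the complex, had 6.91, 6.81, 7.06 and 6.97 on KO1 to KO4, against 6.92, 6.77, 6.69, 6.92 and 7.01 on WT1 to WT5, with overlapping groups (0.10, SE 0.17, adjusted p = 0.696). Fancc, another subunit, had the widest knockout spread of the 37 genes, with 7.32, 7.12, 5.85 and 8.10 on KO1 to KO4 against 6.65 to 6.87 on the wildtype arrays (difference 0.41, adjusted p = 0.609). Whether the core complex differed less than the other groups was not tested.

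Of the 7 checkpoint kinases and their partners, 4 rose and 0 fell, where 7.88% of all genes were called higher and 3.37% lower. The kinase genes Chek1 and Chek2 were called, while Atr and Atm were not. Chek1, the kinase activated by ATR, had 9.88, 9.66, 10.24 and 10.14 on KO1 to KO4, against 7.92, 7.58, 7.79, 7.73 and 7.82 on WT1 to WT5. The groups were far apart (9.98 ± 0.26 in knockout and 7.77 ± 0.13 in wildtype, SD, n = 4 and 5). The rise fitted within batches was 4.74-fold (log2 difference 2.25, SE 0.21, limma adjusted p = 0.0026). Chek2, the kinase activated by ATM, had 7.47, 7.36, 7.61 and 7.70 on KO1 to KO4, against 6.42, 6.12, 6.24, 6.53 and 6.11 on WT1 to WT5 (log2 difference 1.28, SE 0.19, limma adjusted p = 0.0073). Its call ended without WT2 (1.05, adjusted p = 0.0830).

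Atr had 8.84, 8.72, 9.29 and 9.40 on KO1 to KO4, against 9.22, 8.81, 9.32, 8.80 and 8.94 on WT1 to WT5, and its groups overlapped (difference 0.04, SE 0.27, limma adjusted p = 0.928). Its sign turned under both other scalings (-0.24 in each). Atm had 10.35, 10.55, 10.59 and 10.46 on KO1 to KO4, against 10.72, 10.44, 10.69, 10.32 and 10.73 on WT1 to WT5, also overlapping (difference -0.09, SE 0.19, adjusted p = 0.772). That Chek1 and Chek2 changed more than Atr and Atm was not tested. H2ax, the histone variant phosphorylated at breaks, rose by 1.90 (SE 0.34, limma adjusted p = 0.0126), with 10.43, 9.54, 10.35 and 10.84 on KO1 to KO4 against 8.24 to 8.72 on the wildtype arrays; its call ended without WT2 (2.05, adjusted p = 0.0675). Topbp1, an activator of ATR, rose by 0.68 (adjusted p = 0.0386) and did not pass after either other scaling (0.52, adjusted p = 0.0636, and 0.22, adjusted p = 0.474). Mdc1, which binds marked H2AX, had 0.35 (adjusted p = 0.202) and turned to -0.13 under interquartile range scaling.

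**Figure D2:**
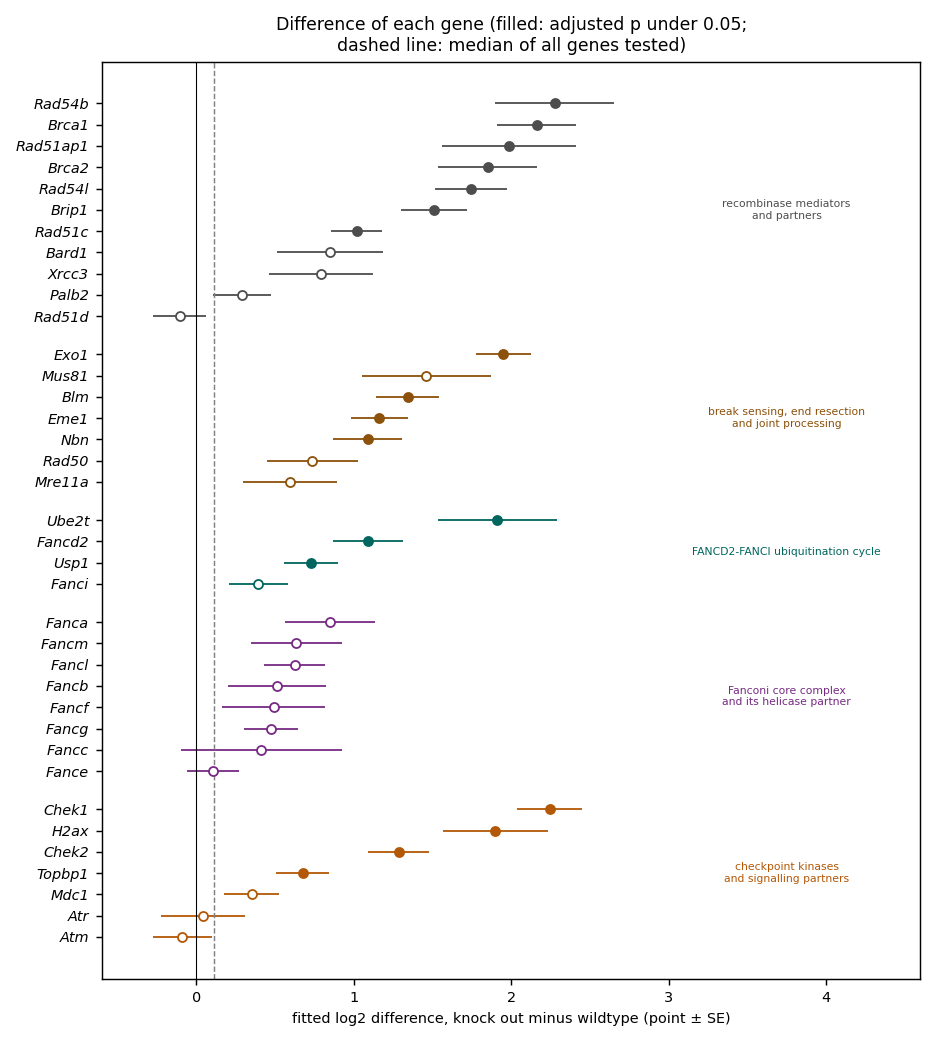
Fitted difference, knockout minus wildtype (log2, point ± SE), of each of the 37 genes, grouped by role; filled points have an adjusted p under 0.05, and the dashed line is the median over all genes tested, 0.11. All 8 genes of the Fanconi core group are unfilled, and the largest differences are those of Rad54b, Chek1 and Brca1.

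The knockout arrays were not alike. KO2 was the lowest of the 4 knockout arrays for all 18 called genes and for 30 of the 37, while KO4 was the highest for 12 of the 18 and 24 of the 37. The same shares over all genes were not counted, so this order is not shown to be particular to these genes. Among knockout arrays the interquartile range was narrowest on KO2 (3.80) and widest on KO4 (4.29). Over all genes tested the median shift was 0.050, 0.051, 0.14 and 0.16 on KO1 to KO4. Relative to the wildtype mean, the median of the 37 genes was 0.80, 0.53, 0.92 and 1.15 (log2) on KO1 to KO4, against 0.06, -0.10, 0.01, -0.01 and -0.02 on WT1 to WT5. Knockout arrays had the larger SD on 31 of the 37 genes (83.8%), where 64.9% of all genes tested had it. Without KO2, 20 of the 37 genes were called higher, among them all 18, and so were 10.4% of all genes.

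Within batches, 32 of the 37 genes were higher in knockout cells in both batch 1 and batch 2, as were 39.0% of all genes tested. Medians over the 37 genes were 0.67 in batch 1 (KO1 minus WT1) and 0.93 in batch 2 (mean of KO2 to KO4 minus WT2). The difference in batch 1 was negative for 5 genes and in batch 2 for 1, Rad51d. Batches 1 and 2 each have a lone wildtype array, so a p-value for a difference within one of them takes its spread from the arrays left in the fit. The fit without WT2 tests the batch 1 difference and called 9 of the 37 genes higher, and the fit without KO1 or WT1 tests the batch 2 difference and called 16, where 3.79% and 8.05% of all genes were called higher in the same order. Bard1, Fancb and Fancd2 were larger in batch 1, while Mus81, Rad50, Fancf and Brca2 were larger in batch 2.

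**Figure D3:**
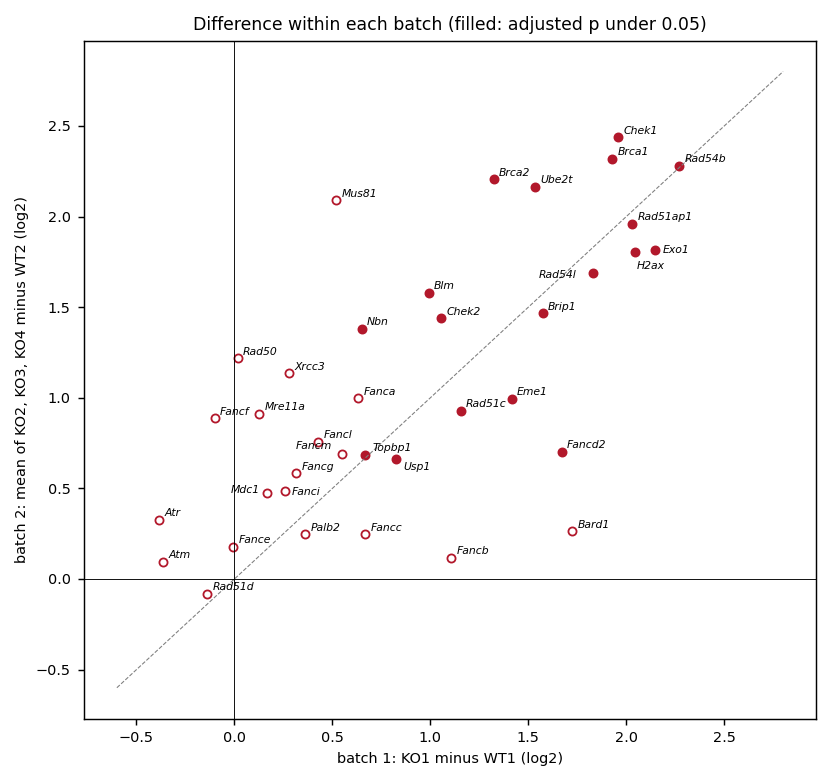
Difference of each of the 37 genes within batch 1 (horizontal axis, log2) and within batch 2 (vertical axis, log2); filled points have an adjusted p under 0.05 and the dashed line marks equal differences. Most genes lie above 0 on both axes, with Rad54b near 2.27 and 2.28, and Mus81 at 0.52 and 2.09.

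Several probe sets target 26 of the 37 genes, and 82 probe sets in all were annotated to the 37. By limma over all one-gene probe sets, 28 of the 82 were called higher and 0 lower, where 4.70% of all 34945 one-gene probe sets were called higher and 2.66% lower in the same fit. Signs agreed for 17 of the 26 genes and were mixed for 9. Chek1 had 4 of 5 probe sets called (1.51 to 2.25), the other being at -0.22 with a mean level of 3.87, under the level of 4.54 that genes had to exceed to be tested. Rad54l had 3 of 4 called (1.51 to 1.75, with 0.94 for the other) and Rad51ap1 also 3 of 4 (1.46 to 2.42, with 0.84 for the other).

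For other genes the probe sets disagreed. The probe set used for Brca1 was the only one of its 4 to be called: the others had 0.21, 0.53 and 0.03 (adjusted p 0.109 to 0.956). Usp1 had probe sets at 0.73 and 1.08 that were called and one at 0.025 (adjusted p = 0.965). Of the Atr probe sets, those not used had -0.95 (adjusted p = 0.115) and -0.19. Ube2t had its call on the probe set used (1.91) and 0.0038 on the other, whose mean level was 4.92. The transcripts that each of these probe sets detects were not analysed here.

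Other genes of recombination and Fanconi repair that are not among the 37 were measured as well: of 45 tested, 10 rose and 0 fell, with a median difference of 0.40. The 4 of smallest p were Mcm8, a helicase of recombination (1.43), Psmc3ip, a partner of the recombinase (1.99), Dna2, a nuclease of end resection (2.39), and Fignl1, which unloads the recombinase (1.92; limma adjusted p 0.0041 to 0.0068). Without WT2, 6 of these 45 were called. Of 19 replication checkpoint genes 10 rose and 0 fell (median 1.09), led by Tipin of the fork protection complex (1.50), the phosphatase gene Cdc25c (2.38), Clspn, an adaptor that brings CHK1 to ATR (2.22), and Cdc25a (1.58; limma adjusted p 0.0029 to 0.0096).

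Of 19 base excision repair genes 7 rose and 0 fell (median 0.57), with Lig1, the ligase of replication (1.42), and the glycosylase gene Neil3 (1.68) at the smallest p (limma adjusted p 0.0050 and 0.0086). Nonhomologous end joining, which joins ends without a template, had 2 of 16 genes higher and 0 lower (median 0.23): Xrcc6, a subunit of the Ku end-binding protein (1.44), and Lig4, its ligase (2.12; both limma adjusted p = 0.0073). Nucleotide excision repair had 1 of 16 higher, Gtf2h4 (1.35, limma adjusted p = 0.0146), and 0 lower (median 0.19). None of 5 mismatch repair genes was called by limma in either direction (median 0.48, smallest adjusted p 0.0644 for Msh6). An unadjusted p under 0.05 was found for 2 of them, and for 30.8% of all genes. Among 19 targets of p53, the factor that damage signalling activates, 2 rose, Pmaip1 (1.70, adjusted p = 0.0099) and Zmat3 (0.59, adjusted p = 0.0451), and 1 fell, Sesn2 (-0.69, adjusted p = 0.0394), with a median of -0.13. All of these counts stand beside the 7.88% of all genes called higher and 3.37% called lower, and differences between the lists were not tested.

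**Figure D4:**
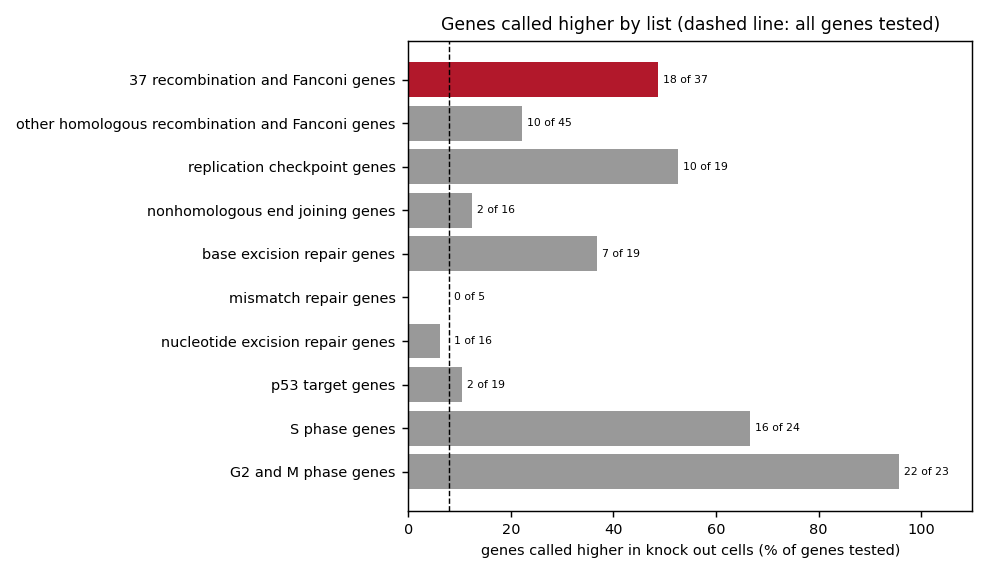
Share of the tested genes of each list that were called higher in knockout cells (%, limma adjusted p under 0.05), with the numbers beside each bar; the dashed line is the share over all genes tested, 7.88%. The bar of the 37 recombination and Fanconi genes (18 of 37) lies between those of base excision repair (7 of 19) and of the replication checkpoint (10 of 19).

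Genes that mark dividing cells were higher on the same knockout arrays. Of 24 S phase genes 16 rose and 0 fell (median 0.97). G2 and M phase were represented by 23 genes, 22 of them higher and 0 lower (median 1.84). Over all genes tested, 7.88% were called higher and 3.37% lower. Mki67, a marker of cycling cells, had 12.62, 12.01, 12.22 and 12.35 (log2) on KO1 to KO4, against 10.54, 11.30, 11.20, 10.58 and 11.04 on WT1 to WT5 (difference 1.37, limma adjusted p = 0.0229). Pcna, the sliding clamp of replication, had 0.43 (adjusted p = 0.0988) and Mcm5, of the replicative helicase, 0.94 (adjusted p = 0.0563). KO2 had the lowest median shift of the knockout arrays, as with the repair genes. It was 0.80 for S phase and 1.39 for G2 and M phase. The highest was on KO4 for S phase (1.13), as for the repair genes, but on KO1 for G2 and M phase (2.09). Median differences were 1.23 in batch 1 and 0.85 in batch 2 for S phase, and 2.38 and 1.47 for G2 and M phase. Those of the 37 repair genes ran the other way, at 0.67 and 0.93. The part of cell cycling in the rise of the repair genes was not tested.

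Markers of some other cell types were higher on knockout arrays too, but not in the same order over the arrays. The median shift was highest on KO4 for the repair genes (1.15). It was highest on KO1 for double-positive thymocyte markers (1.30) and for macrophage and dendritic cell markers (1.86). B cell markers had their lowest knockout value on KO4 (0.07). Of 14 markers of double-positive thymocytes, a stage of T cell development that includes dividing cells, 9 rose and 0 fell (median 1.01), and their summed linear level was 43365 to 62350 on knockout and 25289 to 33910 on wildtype arrays. Their defining markers were not near background in either group: Rag2 of the recombinase that assembles receptor genes had 9.44 to 10.30 (log2) on knockout and 7.86 to 8.57 on wildtype arrays. Of 12 macrophage and dendritic cell markers 4 rose and 0 fell (median 1.23), with a summed level of 1736 to 3300 on knockout and 515 to 835 on wildtype arrays. Their differences ran from -0.06 for Flt3 to 4.05 for Csf1r, which had levels of 8.00 to 9.40 and 3.57 to 5.22 (log2). Of 9 B cell markers 2 rose (Cd79a and Cd79b) and 0 fell, with sums of 1301 to 2556 and 790 to 1205. Differences were positive for 7 of the 9, among them Ms4a1 (1.18, limma adjusted p = 0.0840) and Blnk (1.09, adjusted p = 0.0983). Every knockout array lay above every wildtype array for 4 of the 9, and for 22.2% of all genes. Pax5, which defines B cells, had 4.46 to 5.02 and 4.73 to 5.01. None of 5 granulocyte and erythroid markers was called by limma in either direction (sums of 187 to 1749 and 132 to 756). An unadjusted p under 0.05 was found for 1 of them, and for 30.8% of all genes. Stromal and epithelial markers had 1 of 9 higher, Col1a1, and 0 lower (sums of 712 to 825 and 524 to 664). These marker counts stand beside 7.88% of all genes called higher and 3.37% called lower, and the stromal share of 11.1% is near the first. The 15 iNKT markers had sums of 48396 to 55286 on knockout and 62886 to 69636 on wildtype arrays. The part of other cells in the repair gene differences was not tested.

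**Figure D5:**
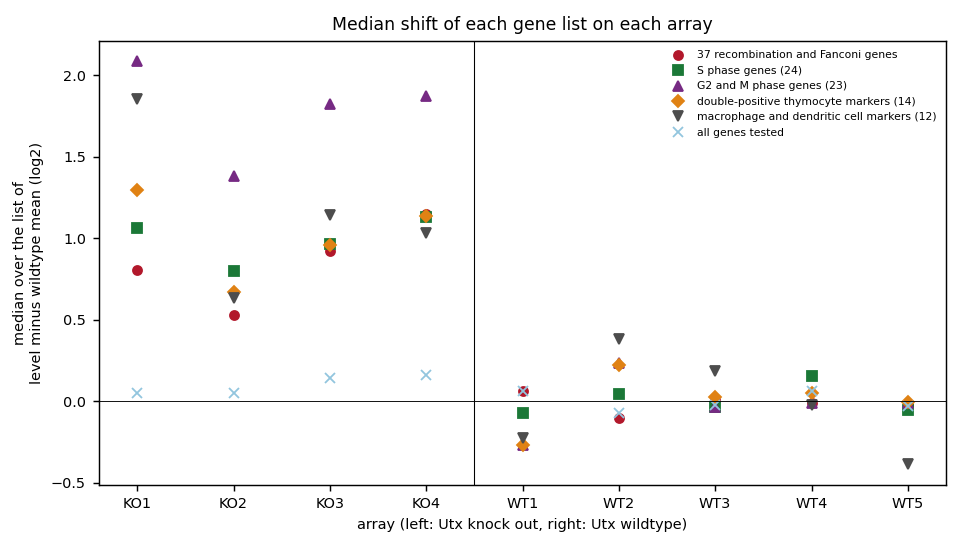
Median over each gene list of the level minus the wildtype mean (log2) on each array, with the knockout arrays left of the line and the wildtype arrays right of it. KO2 is the lowest knockout array for the 37 repair genes (0.53), the S phase genes (0.80), the G2 and M phase genes (1.39), the double-positive thymocyte markers (0.67) and the macrophage and dendritic cell markers (0.64). The highest is KO4 for the repair and S phase genes, and KO1 for the G2 and M phase genes and both sets of cell type markers.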

How the data were processed

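The deposited values are log2 expression levels of 45101 probe sets on 9 arrays, made by the authors with RMA (version not stated), per the submitters' processing notes; per the labels' protocols the RNA was amplified from small amounts and labelled with biotin. Genotype, replicate number and batch come from the sample titles. Of all probe sets, 34945 name 1 gene in the platform annotation; for each of 18193 genes the probe set of highest mean was used, and a gene was tested if its mean exceeded 4.54 (log2), the value below which 25% of probe sets lay. All 37 members on the array passed, the lowest having a wildtype mean of 5.83. The comparison used limma 3.58.1 (R 4.3.3): lmFit and eBayes on all 9 arrays with genotype and batch as factors, two-sided, with Benjamini-Hochberg adjustment (5 residual and 3.50 prior degrees of freedom). The fit was also run on simulated data with independent noise and added batch shifts. The deposited values have correlated deviations between arrays, so that run does not check the p-values given here. The deposited log2 values fold amplification and probe effects into each level, so levels are compared between arrays and never between probe sets. Deviations of same-numbered arrays from their group means correlated at r = -0.922, 0.0851, 0.0228 and 0.152. These values cannot decide on pairing, since no label says whether the levels had been adjusted for batch. The numbers were not taken as pairs. No 2 arrays were duplicates (smallest SD of a within-group difference 0.305). The number of arrays limits the precision.

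The members and gene lists were chosen with earlier results of these data known. Every member may be named; for other lists the genes of smallest p, and Mki67, Pcna and Mcm5, are named whatever their result; cell type markers were named to show their range, and Zbtb16, Cd3e, Rag2, Csf1r, Pax5, Cd79a, Cd79b, Col1a1, Cd44, Il2rb, Tbx21 and Klrd1 were picked after their values were seen. Ms4a1, Blnk and Flt3 were likewise named after their values were seen. Alternatives covered the batch term, the filter, the scaling, the probe set, eBayes settings, array weights and left-out arrays.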

Additional observations from a re-analysis of the deposited data

Results flagged for a closer look

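In 1 of 74 groups examined (4 knockout or 5 wildtype arrays for each of the 37 genes), a single array lay apart from the rest by Dixon's test, which chance alone would do in more groups than this, about 1 in 20. This was Rad51ap1, where WT3 had 7.53 (log2) and the other wildtype arrays 6.79 to 7.00. Its gap to the next array was 0.712 of the group's range. WT3 comes from a batch without knockout arrays, so leaving it out could not change the fitted difference of Rad51ap1 (1.99). Only the spread of the fit and the adjusted p could move, and the gene was still called (limma adjusted p = 0.0310). The size of the rise was therefore not checked by leaving out WT3.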

How the results depend on the processing

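The count of the 37 genes called higher, 18, was 29 with no batch term, 32 with batch as a random block (estimated correlation -0.323), and 9 without the wildtype arrays of batch 3; it lay within 13 to 25 under the other alternatives and between 9 and 20 when single arrays were left out. With batch as a random block 1 gene, Rad51d, was called lower; under all other alternatives the count was 0, as it was in each fit that left out a single array. The 45 other recombination and Fanconi genes had 24 called higher with no batch term, 32 with batch as a random block, 20 with the replicate number as a block, 4 with array weights and 4 without the wildtype arrays of batch 3, and 6 to 12 without single arrays. Over all genes, the 1634 calls became 6342, 10045, 4290, 534 and 340 in the same order, and 860 to 2054 without single arrays. With the replicate number as a block, 25 of the 37 genes were called. The share of all genes called higher was 27.8% with no batch term, 42.5% with the random block, 19.4% with the replicate block, 2.81% with array weights and 1.89% without the wildtype arrays of batch 3. The median difference of the 37 genes was 0.63 to 0.93 under all alternatives, and 0.67 to 0.93 without single arrays. Signs turned for Atr (-0.24 with another quantile normalization, -0.24 with interquartile range scaling, -0.36 with the mean of all probe sets), Fancg (-0.016), Fanci (-0.0073) and Mdc1 (-0.13) with interquartile range scaling, Fancf (-0.022) with the mean of all probe sets and Atm (0.096) without the batch 1 pair. Without single arrays, Atm ranged from -0.37 to 0.096, Atr from -0.38 to 0.33, Fance from -0.0057 to 0.18 and Fancf from -0.10 to 0.89; none of these was called. Fits without single arrays are smaller by construction, and the causes of the other changes were not tested. Leaving out KO1 or WT1 gives the same difference, since the other is then alone in its batch.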
